A study of Mus musculus with 6 samples.

Results

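The Hox clusters A to D hold the homeobox genes that give cells their position along the body axis. The 38 Hox genes described here were taken by name and by their mm10 position from 21887 protein-coding genes on the same chromosomes, with 10 genes in HoxA, 10 in HoxB, 9 in HoxC and 9 in HoxD. Because neighbouring Hox genes overlap, each cluster was treated as a stretch that ran from its first to its last listed gene with 20 kb on each side. The stretches were chr6:52142417-52280880 (HoxA, 138 kb), chr11:96174316-96388254 (HoxB, 214 kb), chr15:102901131-103056856 (HoxC, 156 kb) and chr2:74648225-74785142 (HoxD, 137 kb).

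The mark measured was acetylation of lysine 27 on histone H3 (H3K27ac), which is found at active promoters and enhancers, and the assay was CUT&RUN, in which an antibody tethers a nuclease that releases the DNA around the mark. Cells came from mouse lungs at E16.5 (days of embryonic development), from timed matings of Myrf Fl/Fl mice for which no Cre is named; the series text calls the cells wildtype. Mesothelium, the sheet of cells that covers the lung, was collected in the gate PDPN+EPCAM-CD45-CD31-DAPI-, and epithelium, which lines the airways and air sacs, in the gate PDPN+EPCAM+CD45-CD31-DAPI-. There were 2 libraries of each, made from 25k and 100k mesothelial and 100k and 200k epithelial cells by their titles, while the protocol gives a narrower range for this mark. Lungs were pooled before the sort, and nothing in the labels says that the libraries of a cell type came from separate pools, so the p-values below measure the spread between libraries, which may be technical. The 2 IgG control libraries, made from epithelial cells, were not analysed here, and the peaks have no background level beside them. Since the cells of a sort were measured together, the mark on fewer cells and less of the mark per cell cannot be told apart.

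In mammals the Hox genes lie in 4 clusters, and genes at matching places in different clusters form 13 paralogue groups. Genes of low group number lie at the 3′ end of a cluster, respond early to retinoic acid and are used in anterior parts of the body, while those of high number are used in posterior parts and in limbs and genitalia. Silent Hox chromatin carries Polycomb methylation of histone H3, and active Hox chromatin carries Trithorax-type methylation and acetylation, so that a cluster often has an active and a silent side with a border between them. Hox proteins bind DNA together with PBX and MEIS proteins. In the lung, Hoxa5 is required for normal development of the airways.

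Between 39010 and 47873 broad peaks were listed per library, over 35.7 to 44.4 Mb. Median widths lay between 571 and 613 bp and medians of the authors' fold enrichment over background between 3.47 and 3.75. The lists give no counts, so the depth is unknown, and a place without a peak is not shown to lack acetylation. Over 7 mesothelium marker genes the summed acetylated length was 21.6 and 51.1 kb in mesothelium against 1.82 and 6.10 kb in epithelium, and over 7 epithelium markers it was 24.5 and 3.16 kb against 106 and 135 kb. The summed lengths of both lists thus followed the labels between the cell types. Within mesothelium replicate 1, however, the epithelium markers were longer than the mesothelium markers, and Msln, a mesothelium marker, had 0.544 and 0.893 kb in mesothelium against 1.19 and 4.28 kb in epithelium (-1.18, limma adjusted p = 0.438).

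Acetylation in the Hox clusters was found in HoxA and HoxB, mainly in mesothelium, and ended in both at the gene of paralogue group 5. In HoxA the mesothelium libraries had 9 and 5 peaks, which covered 15.4 and 19.8 kb, while the epithelium libraries had 1 and 0 peaks, which covered 0.384 and 0 kb. In HoxB the mesothelium libraries had 12 and 10 peaks over 21.6 and 20.8 kb, and the epithelium libraries had 1 peak each, of 0.480 and 0.488 kb. Both mesothelium libraries lay above both epithelium libraries in these clusters, with no overlap. HoxC and HoxD held no peak in any of the 4 libraries.

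**Figure D1:**
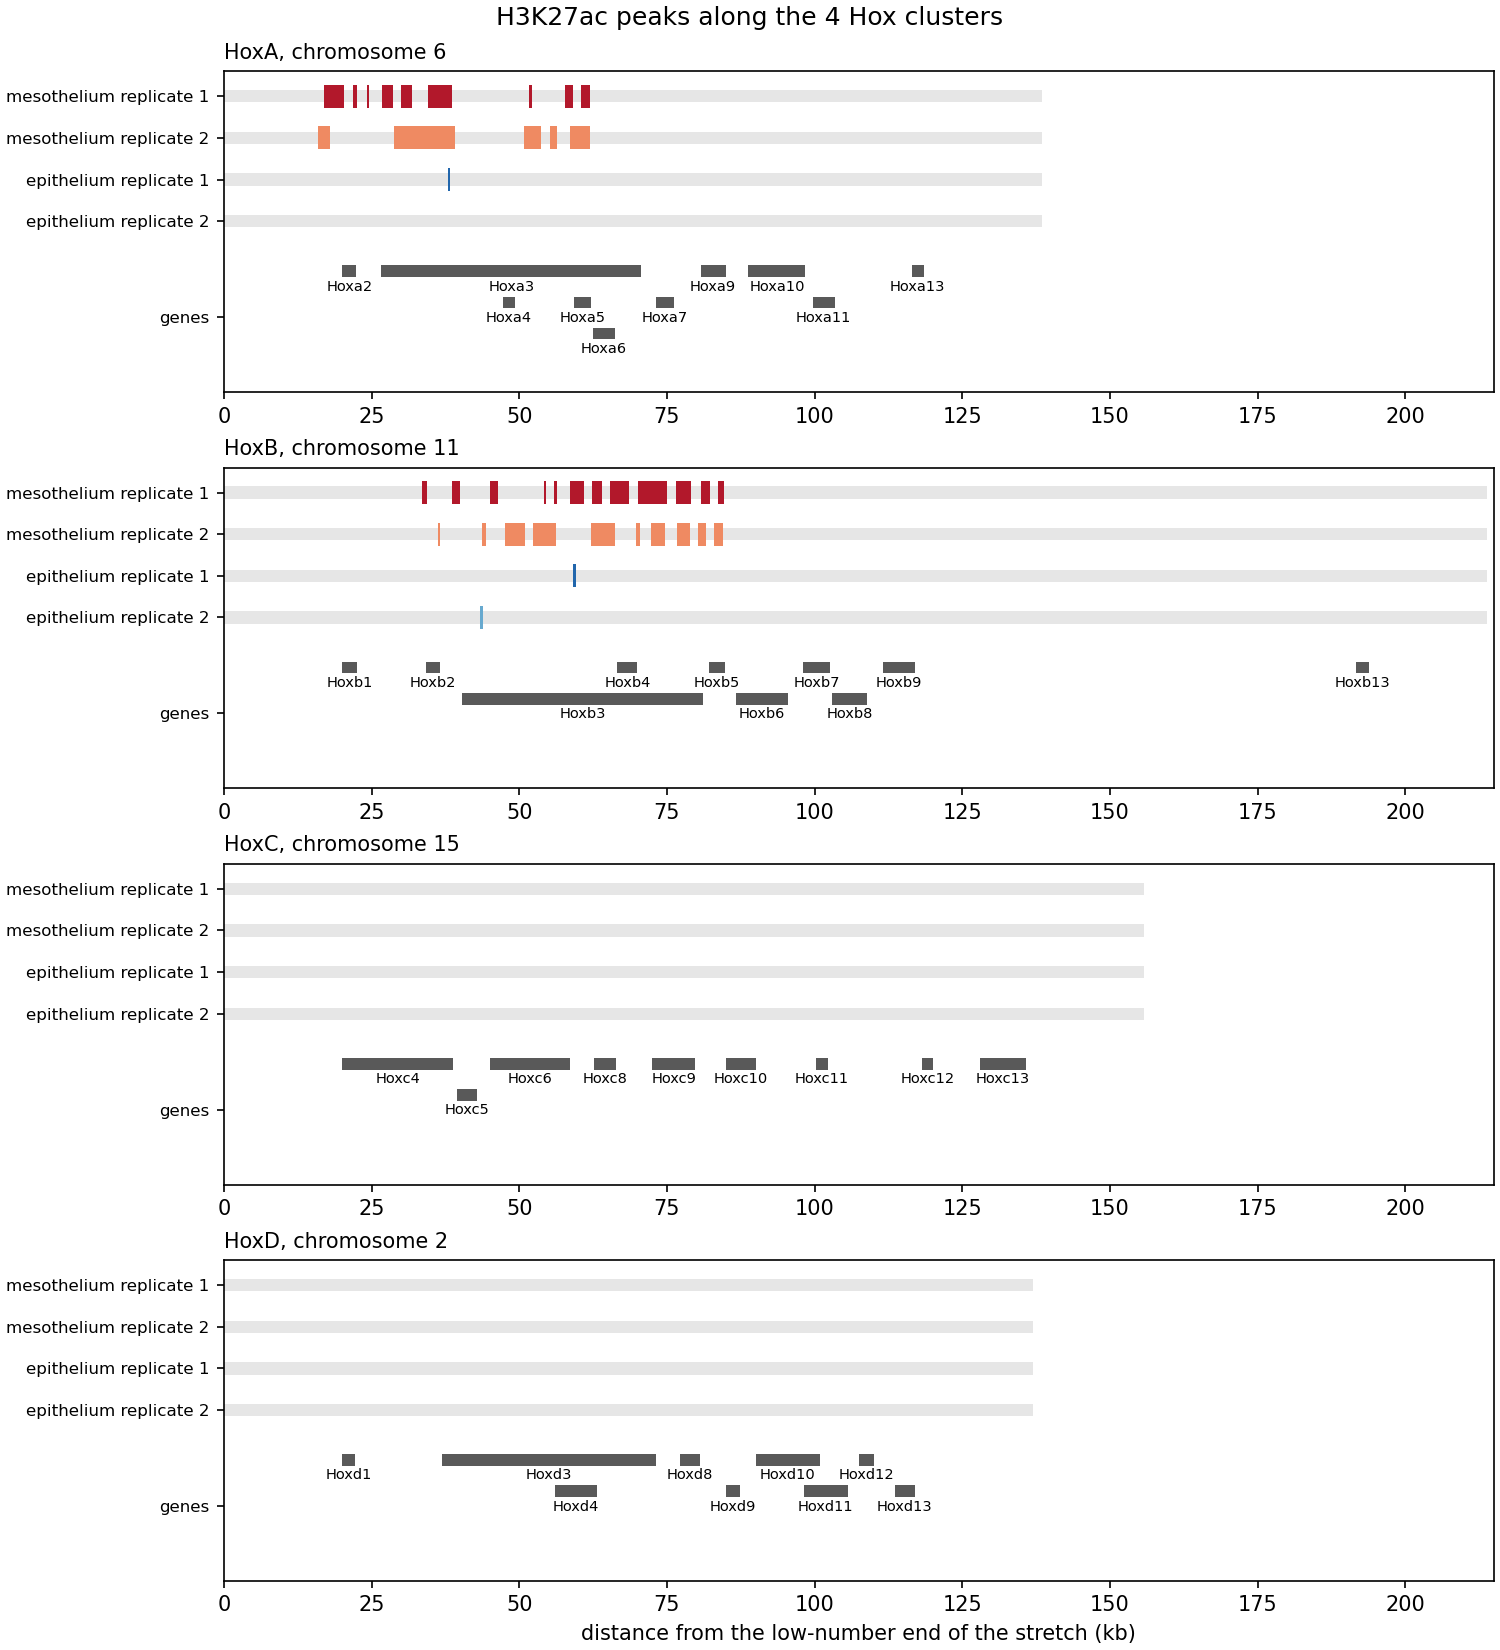
Peaks of each library along the 4 Hox clusters, with the distance in kb from the low-number end of each stretch on the horizontal axis, 1 row per library (coloured boxes are peaks, grey bars the stretch searched) and the listed genes below. Mesothelium peaks lie on the low-number side of HoxA and HoxB, with gaps between them, and end at Hoxa5 and Hoxb5, while HoxC and HoxD are empty.

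Covered length was 17.6 ± 3.06 kb in mesothelium and 0.192 ± 0.272 kb in epithelium for HoxA, and 21.2 ± 0.514 kb and 0.484 ± 0.00566 kb for HoxB (mean ± SD, n = 2 libraries each). As single features in a fit over 10479 gene domains and clusters, HoxA differed by 4.82 (SE 0.62) and HoxB by 4.52 (SE 0.56) on the log2(kb + 0.5) scale, with limma Benjamini-Hochberg adjusted p of 0.000145 and 0.000128. Both clusters that could be tested passed, where 1.43% of all features passed in this direction, 2.55% in the other, and both mesothelium libraries lay above both epithelium libraries in 22.4%. A cluster could be tested only with a mean of at least 0.5 kb over the libraries. HoxA and HoxB reached that mean through mesothelium alone, so that both passed adds no support beside these shares. By size of the difference HoxA ranked 1 and HoxB 3 among the features. The test pools its spread over all features; an exact permutation test of 2 libraries against 2 cannot go below p = 0.33. Keeping peaks whose −log10 q was 2 or more ended both calls, with 4.63 for HoxA and 4.43 for HoxB (limma adjusted p = 0.115 and 0.122), and at that threshold no feature of the whole fit was called in either direction. With a smaller pseudocount of 0.1 kb the HoxA call was also lost (6.39, limma adjusted p = 0.0592).

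**Figure D2:**
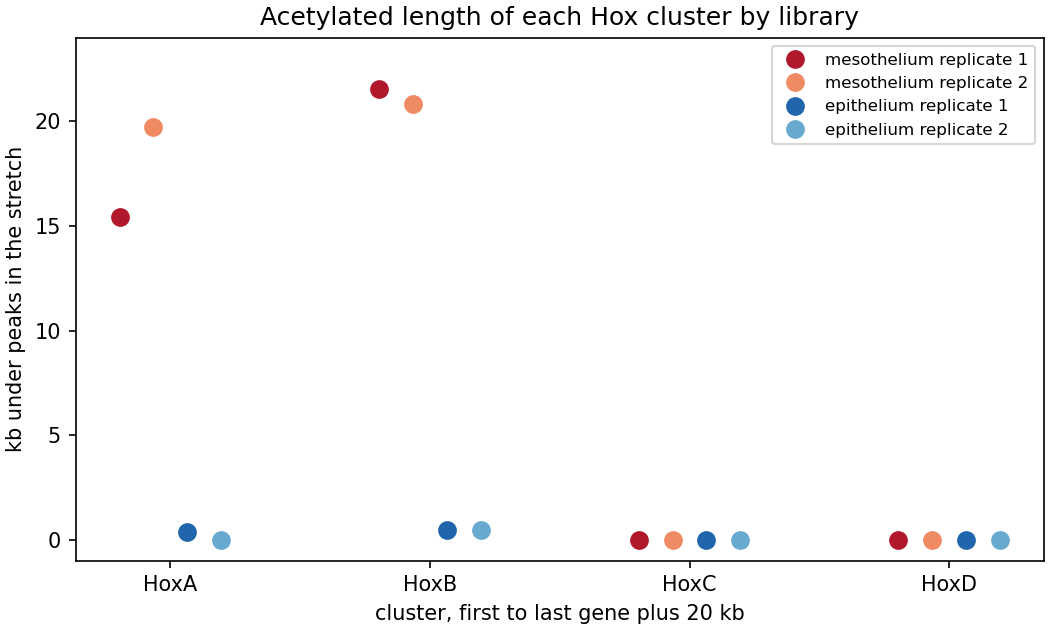
Acetylated length in kb (vertical axis) of the 4 clusters with 20 kb on each side, 1 point per library. The mesothelium points lie between 15.4 and 21.6 kb in HoxA and HoxB and the epithelium points at or below 0.488 kb, and all points of HoxC and HoxD lie at 0.

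Set beside windows of the same length across the genome, 0.548% of 19167 windows had at least the mean mesothelium length of HoxA, and 0.798% of 12400 windows had at least that of HoxB. The median window had 0.675 kb in mesothelium at the length of HoxA and 1.19 kb at the length of HoxB. Empty stretches were less rare: 7.37% of windows of the length of HoxC and 8.54% of windows of the length of HoxD held no peak in any library. These shares are a description, since neighbouring windows share domains of acetylation. The libraries of 100k cells, 1 of each cell type, gave 19.8 kb in mesothelium and 0.384 kb in epithelium for HoxA, and 20.8 and 0.480 kb for HoxB.

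In mesothelium, bases covered in both libraries amounted to 9.44 kb in HoxA and 10.1 kb in HoxB. The bases in both divided by those in either (the Jaccard index) were 0.366 for HoxA and 0.314 for HoxB, against 0.132 over the whole lists, with no test of the difference. In epithelium no base of a Hox cluster was covered in both libraries.

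In HoxA, mesothelial acetylation ran from the flank beyond Hoxa2, over the long noncoding RNA gene Hotairm1, through Hoxa3 to Hoxa5. Its last base covered in both libraries was at chr6 position 52204400, inside Hoxa5 (chr6:52201754-52204587), 187 bases from the end of the gene where RefSeq places its transcription start. The separate libraries ended at 52204418 and 52204400, so the end was the same to within 18 bases. Hoxa6 began 0.458 kb farther on, and the remaining 56.5 kb to the end of Hoxa13 held no peak in any library. The widest Hox peak of all was found here: a 10.2 kb peak at chr6:52171255-52181474 of mesothelium replicate 2, within Hoxa3, was wider than 99.99% of the peaks of its list. Replicate 1 had peaks of 1.79 and 4.14 kb over the same segment. A gap of 13 kb without bases covered in both libraries separated that segment from the next, with Hoxa4 inside it.

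In HoxB, the separate mesothelium libraries were acetylated, with gaps, over spans of 51.0 and 48.2 kb, from Hoxb2 through Hoxb3 and Hoxb4 to Hoxb5. Bases covered in both libraries spanned 30.4 kb and began at 96334139, inside Hoxb3, so they did not reach Hoxb2. The last base covered in both was at chr11 position 96303768, inside Hoxb5 (chr11:96303512-96306121), and the separate libraries ended at 96303658 and 96303768. Hoxb6 lay 2.2 kb farther on, and no peak lay between it and the end of Hoxb13, 109 kb from the last shared base. With peaks joined across gaps of up to 12.5 kb, as is done to find very large enhancers, the HoxB domain ranked 33 of 24743 joined regions by covered length in mesothelium replicate 1 and 42 of 25432 in replicate 2. HoxA ranked 191 and 58, in replicate 1 as a 21.7 kb region that ended before Hoxa5 because of the 13 kb gap.

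Split between paralogue groups 5 and 6, a place chosen with the peaks in view, the low-number part of HoxA was covered over 23.2% and 29.7% of its 66.5 kb in mesothelium, and that of HoxB over 25.2% and 24.3% of its 85.7 kb. The high-number parts, 71.9 kb in HoxA and 128 kb in HoxB, had 0 kb in all 4 libraries. The border depended on the settings. At a −log10 q of at least 2 the last shared base lay at 52181073, in Hoxa3, and at 96309414, in Hoxb3. With a stop at a gap of 10 kb the HoxA end lay at 52160387, in the flank beyond Hoxa2. Another gap, over Hoxa2, began there, and the next base covered in both libraries was at 52172387. With equal numbers of peaks per library the HoxB end lay at 96306582, just outside Hoxb5. None of the 4 alternative settings could place the end beyond Hoxa5 or Hoxb5, since no library had a peak past these genes. The settings therefore do not test the border on that side.

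The promoters of Hoxa5 and Hoxa6 are shown, since these genes lie where the acetylated side of HoxA ended. Hoxb5 and Hoxb6, at the HoxB border, had no promoter window. Hoxb4 is shown as the member whose window lay partly or wholly under peaks of both mesothelium libraries. The windows are from RefSeq on GRCm38.p6 and hold 250 bases before and 50 after the start, read 5′ to 3′ on the strand of the gene. Bases under a peak of mesothelium replicate 1 are in capitals. They are chr11:96318017-96318316 (plus strand) for Hoxb4, and chr6:52164782-52165081, chr6:52204538-52204837 and chr6:52208623-52208922 (minus strand) for Hoxa2, Hoxa5 and Hoxa6. Hoxa2, where the peak covers the start in replicate 1 alone, was added after its values were seen.
Hoxb4: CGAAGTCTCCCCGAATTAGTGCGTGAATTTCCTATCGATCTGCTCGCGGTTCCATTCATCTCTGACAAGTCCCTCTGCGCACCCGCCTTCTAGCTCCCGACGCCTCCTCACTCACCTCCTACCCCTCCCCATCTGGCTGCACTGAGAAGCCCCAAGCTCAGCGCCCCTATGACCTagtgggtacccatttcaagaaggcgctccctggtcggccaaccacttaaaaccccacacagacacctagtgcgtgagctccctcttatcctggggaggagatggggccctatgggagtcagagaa
Hoxa2: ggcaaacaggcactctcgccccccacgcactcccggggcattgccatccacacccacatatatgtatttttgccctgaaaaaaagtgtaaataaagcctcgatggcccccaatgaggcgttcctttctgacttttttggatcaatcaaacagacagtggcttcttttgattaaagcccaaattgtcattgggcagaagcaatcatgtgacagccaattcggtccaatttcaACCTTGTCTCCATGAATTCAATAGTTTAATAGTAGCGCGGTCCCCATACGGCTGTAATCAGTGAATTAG
Hoxa5: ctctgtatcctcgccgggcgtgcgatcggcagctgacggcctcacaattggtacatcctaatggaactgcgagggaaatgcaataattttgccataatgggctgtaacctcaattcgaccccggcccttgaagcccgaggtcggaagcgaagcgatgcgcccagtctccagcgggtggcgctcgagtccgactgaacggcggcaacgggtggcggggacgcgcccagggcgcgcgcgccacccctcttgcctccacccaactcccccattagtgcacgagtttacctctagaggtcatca
Hoxa6: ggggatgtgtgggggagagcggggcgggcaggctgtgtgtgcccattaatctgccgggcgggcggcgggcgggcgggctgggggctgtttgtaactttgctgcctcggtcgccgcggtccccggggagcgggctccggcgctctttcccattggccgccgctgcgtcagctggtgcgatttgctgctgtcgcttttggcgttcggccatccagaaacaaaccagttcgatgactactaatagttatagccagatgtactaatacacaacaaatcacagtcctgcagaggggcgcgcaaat

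At Hoxb4 a peak covered 175 of the 300 bases in mesothelium replicate 1 and all 300 in replicate 2; the start itself was covered in replicate 2 alone, with the replicate 1 peak ending 76 bases before it. At Hoxa2 the peak of replicate 1 covered the last 69 bases, and replicate 2 had none. The Hoxa5 and Hoxa6 windows were free of peaks in all libraries. In mesothelium replicates 1 and 2 the nearest peak, inside Hoxa5, lay 169 and 187 bases from the start of Hoxa5. From the start of Hoxa6 it lay 4254 and 4272 bases away. Acetylation thus reached the gene body of Hoxa5 but was not called across its start. The RefSeq table held 24 windows of 22 of the 38 members, and Hoxb2, Hoxb3 and Hoxb5 were among those without one. Of these windows 2 lay under a mesothelium peak and none under an epithelium peak.

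The Hox promoters were rich in CpG, with a median of 14.5 CpG and 57.7% G and C, against 7 and 52.7% over 32817 promoter windows. The CCAAT box (CCAAT, either strand) was present in 15 of the 24 Hox windows and in 37.4% of all windows; Hoxa2 held 4, Hoxa5 and Hoxa6 held 1 each and Hoxb4 held none. A PBX-HOX motif (TGATNNAT, either strand) was present in 4 of 24 and in 8.86% of all, and a MEIS motif (TGACAG, either strand) in 2 of 24 and in 19.2% of all. Hoxa2 held both. A direct repeat bound by retinoic acid receptors (the motif named DR5, either strand) was in none of the Hox windows and in 0.00914% of all. TATAAA was in 4 of 24 against 13.6%, and AGATAA in 0 against 11.2%. These matches describe the letters of the windows and were not tested.

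Gene by gene, counting peaks within the gene body plus 1 kb, 7 of the 38 members had a peak in both mesothelium libraries (38.0% of all coding genes did), 8 in either (57.1%), 1 in both epithelium libraries (37.6%) and 2 in either (58.1%), and 30 had no peak in any library (33.3%). Of the 7, 5 had none in epithelium: Hoxa5, Hoxa6, Hoxb2, Hoxb4 and Hoxb5, against 2.41% of coding genes with this pattern. Hoxb3 had peaks in all libraries (28.8%), and no member had peaks in epithelium alone (2.51%). Paralogue groups 1 to 5 held 6 of the 7, out of 14 members, and groups 6 to 13 held 1 of 24, Hoxa6, which was reached by the peak inside its neighbour Hoxa5. Because the genes overlap and share peaks, these counts are not independent.

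**Figure D3:**
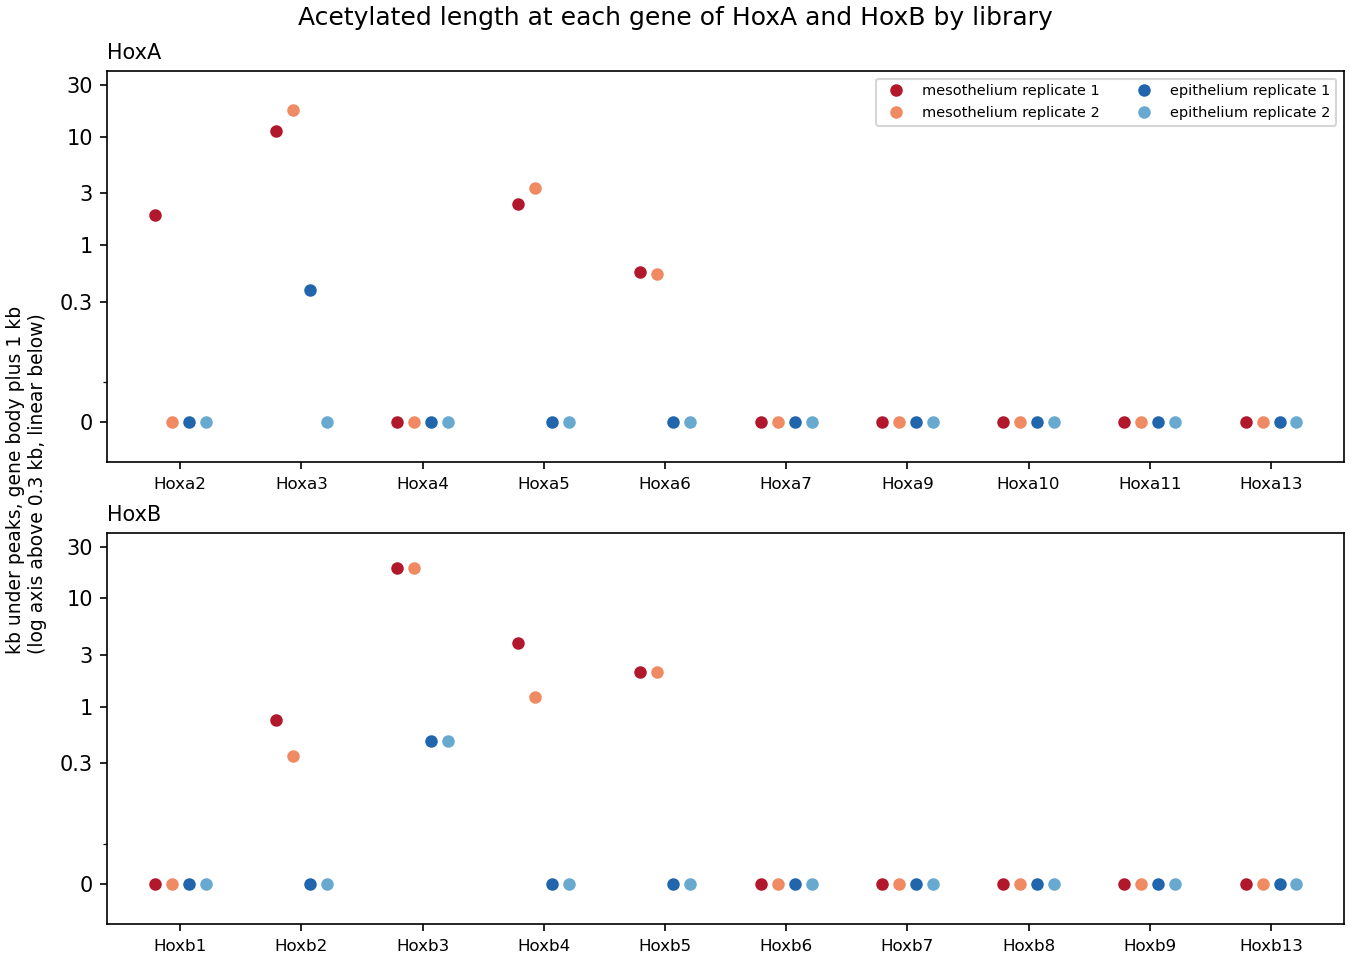
Acetylated length in kb within the gene body plus 1 kb (vertical axis, logarithmic above 0.3 kb and linear below) of each listed gene of HoxA and HoxB, 1 point per library. Values above 0 occur at Hoxa2, Hoxa3, Hoxa5 and Hoxa6 and from Hoxb2 to Hoxb5, and epithelium is above 0 at Hoxa3 and Hoxb3 alone.

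Of the group 1 and 2 genes, which pattern the hindbrain and the pharyngeal arches, Hoxb1 had 0 kb in all libraries. Hoxa2, which sets the identity of the second pharyngeal arch, had 1.90 kb in mesothelium replicate 1 and 0 kb in the other 3 libraries, so it rested on 1 library. Hoxb2 had 0.753 and 0.354 kb in mesothelium and 0 kb in epithelium. The mesothelium values of Hoxb2 were both above those of epithelium, but short and at different places around the gene.

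The group 3 genes carried most of the acetylated length. Hoxa3, needed for the thymus and parathyroid, had 11.2 and 17.7 kb in mesothelium, against 0.384 and 0 kb in epithelium. Hoxb3 had 19 and 18.9 kb in mesothelium, against 0.480 and 0.488 kb in epithelium. Both mesothelium libraries stood above both epithelium libraries at each gene. These are the longest listed genes of their clusters, 44.0 and 40.8 kb, and RefSeq has Hoxa3 overlap Hoxa4, Hoxa5 and Hoxa6, and Hoxb3 overlap Hoxb4, so part of their length is that of their neighbours.

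Among group 4 genes, Hoxa4 had 0 kb in all 4 libraries, although it lies between the acetylated parts of Hoxa3. Hoxb4, known for its effect on blood stem cells, had 3.90 and 1.23 kb in mesothelium and 0 kb in epithelium. At group 5, Hoxa5 had 2.40 and 3.34 kb and Hoxb5 2.08 and 2.08 kb in mesothelium, and both had 0 kb in epithelium. The 2 group 5 genes at the border thus had acetylation in both mesothelium libraries and none called in epithelium. Past the border, Hoxa6 had 0.561 and 0.543 kb in mesothelium, none of it inside the gene, and Hoxb6 had 0 kb in all libraries.

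The other members of HoxA and HoxB, Hoxa7, Hoxa9, Hoxa10, Hoxa11, Hoxa13, Hoxb7, Hoxb8, Hoxb9 and Hoxb13, had 0 kb in all libraries, as did the 18 members of HoxC and HoxD. These include the group 13 genes, which act at the tail end of the body and in the digits. The nearest peak to HoxC was one of 1.63 kb in mesothelium replicate 2 alone, outside the stretch, and it fell to the domain of Hoxc4. In the main fit no Hoxc or Hoxd gene had enough covered length to be tested.

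Only 6 of the 38 members had enough acetylated length (a mean of at least 0.5 kb in the gene domain, the gene with the intergenic bases nearest to it) to be tested. Of these, 2 were longer in mesothelium, where 1.41% of 10483 domains passed in that direction, and 0 were longer in epithelium, where 2.53% did. Hoxa3 differed by 4.52 (SE 0.64) and Hoxb3 by 4.37 (SE 0.56) on the log2(kb + 0.5) scale, with limma Benjamini-Hochberg adjusted p of 0.000399 and 0.000192, ranks 2 and 3 of all domains. For peaks with a −log10 q of 2 or more both calls were lost (limma adjusted p = 0.124 for each), and with a pseudocount of 0.1 kb that of Hoxa3 was lost (6.08, limma adjusted p = 0.0699). The values of the other 4 did not pass: Hoxa5 at 2.43 (adjusted p = 0.108), Hoxb5 at 2.11 (0.189), Hoxb4 at 1.46 (0.454) and Hoxa2 at 1.33 (0.537), all by limma. Without mesothelium replicate 2, Hoxb4 was at 2.46 and Hoxa2 at 2.69 (limma adjusted p = 0.426 and 0.330). Epithelium was at 0 kb for these 4, so their fitted differences depend on the 0.5 kb added and are no bound. The median of the 6 was 2.27, against 0.03 over all domains. A member could be tested only where some library was long, so these medians are not of all 38 members. All 6 reached the mean of 0.5 kb through mesothelium alone, so their calls add no support beside the shares of all domains.

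**Figure D4:**
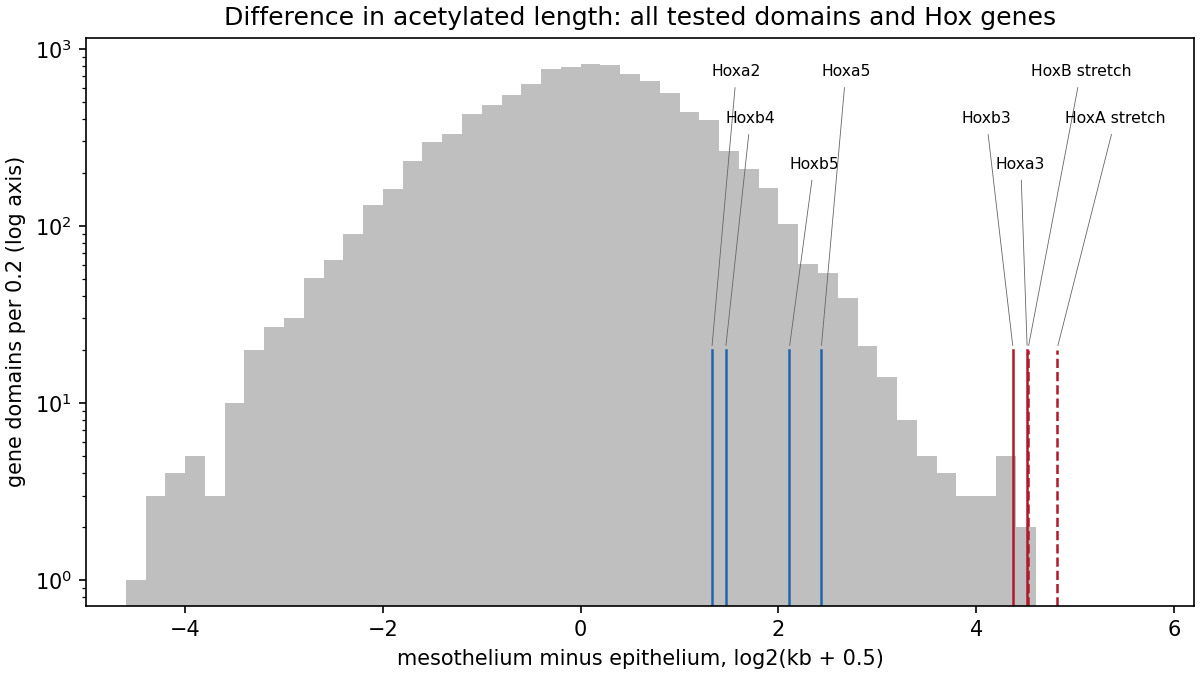
Number of gene domains (logarithmic vertical axis) by the difference in acetylated length, mesothelium minus epithelium on the log2(kb + 0.5) scale; solid lines mark tested Hox genes (red where limma's adjusted p was under 0.05, blue where not) and dashed lines the clusters taken as single features. Hoxa3, Hoxb3 and the clusters HoxA and HoxB lie at the far right, between 4.37 and 4.82.

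With the gene body plus 5 kb as the domain, 5 members of 10 tested were called longer in mesothelium, against 0.870% of domains. They were Hoxa3, Hoxb3, Hoxb4 (4.11, limma adjusted p = 0.00633), Hoxb5 (3.29, 0.0262) and Hoxa5 (3.05, 0.0416). Hoxa6 (2.85, 0.0605) and Hoxa2 (2.86, 0.0722) did not pass. In this setting neighbouring genes share more bases, so that 1 peak counts for several members. Here too a member could be tested only where mesothelium was long.

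Most mesothelium peaks inside the clusters were wider than the median peak of their list. In HoxA the authors' fold was 3.62 to 5.25 in mesothelium replicate 1, with all 9 above the list median, and 3.34 to 4.70 in replicate 2, with 3 of 5 above it. In HoxB it was 3.29 to 5.08 and 3.19 to 4.91, with 7 of 12 and 7 of 10 above. Widths were above the list median for 7 of 9 and 5 of 5 peaks of HoxA and for 11 of 12 and 9 of 10 of HoxB. The highest −log10 q of a Hox peak was 3.91, at chr6:52194098-52194532 within Hoxa3, and no Hox peak reached 4.

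**Figure D5:**
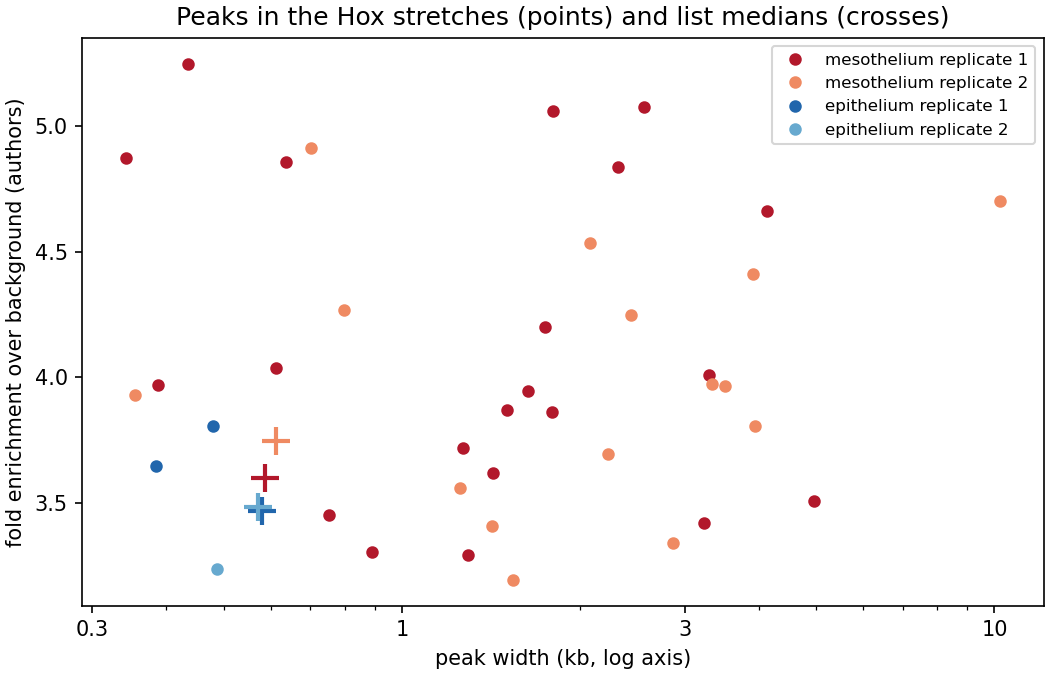
The authors' fold enrichment (vertical axis) against peak width in kb (logarithmic horizontal axis) of every Hox peak, 1 point per peak, coloured by library. Mesothelium peaks reach 10.2 kb in width, and the 3 epithelium peaks lie at the narrow end, at 0.384 to 0.488 kb.

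The 3 epithelium peaks were a peak of 384 bases at chr6:52180330-52180713 in Hoxa3 and peaks of 480 and 488 bases at chr11:96328653-96329132 and chr11:96344376-96344863 in Hoxb3. All 3 were narrower than the median peak of their lists, and their −log10 q was between 1.25 and 1.87. They were in different places, so Hoxb3 counted as having peaks in both epithelium libraries without a shared base.

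The clusters also hold 6 microRNA genes, which lie between or inside the Hox genes and whose products bind Hox messages among others. Their mature 5p sequences are shown from RefSeq, with bases 2 to 8, the seed, in capitals, to show the 2 seeds that recur across the clusters and the near copy in HoxD of the acetylated one.
mmu-miR-10a-5p (HoxB): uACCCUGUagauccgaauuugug
mmu-miR-10b-5p (HoxD): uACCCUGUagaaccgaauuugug
mmu-miR-196a-5p (HoxB and HoxC): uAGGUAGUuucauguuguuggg
mmu-miR-196b-5p (HoxA): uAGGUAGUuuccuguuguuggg

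miR-10a-5p and miR-10b-5p share the seed and differ at U12A, counted from the 5′ end, and miR-196a-5p and miR-196b-5p share the other seed and differ at A12C. The hairpin of Mir10a, at chr11:96317165-96317274 inside Hoxb3, lay wholly under a peak of mesothelium replicate 1, and the mature 5p sequence lay 565 bases from the nearest peak of replicate 2. In epithelium the nearest peaks were 11445 and 27168 bases away. The hairpins of Mir10b, Mir196a-1, Mir196a-2, Mir196b and Mir615 had no covered base in any library. The one acetylated microRNA gene is thus on the low-number side of HoxB, in 1 library of 2, while Mir196a-1 and Mir196b are on the side without peaks.

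Among noncoding genes, the clusters hold 27 long noncoding RNA genes. Of these, 7 had a peak in both mesothelium libraries (11.2% of 12727 such genes did) and 3 in either epithelium library (34.1%). The 7 were 5 of 12 in HoxA and 2 of 6 in HoxB, with the peaks all on the low-number side. Hotairm1, a myeloid-associated transcript of HoxA, had 2.64 and 1.86 kb covered in mesothelium and 0 kb in epithelium. Gm15050 was covered over 1.18 kb in both mesothelium libraries, its whole length, and 5730596B20Rik over 3.70 kb in both, with 0.384 and 0 kb in epithelium. Hoxaas3, which overlaps Hoxa5, had 2.03 and 3.28 kb, and in HoxB, Hoxb5os had 1.87 and 1.87 kb and Hoxb3os 1.46 and 1.15 kb, with 0 and 0.488 kb in epithelium at Hoxb3os. Both mesothelium libraries were above both epithelium libraries at each of these. They overlap Hox genes or share peaks with them, so their values add no separate measurement. Hottip and Hoxa11os on the high-number side of HoxA, Hotair in HoxC and Haglr in HoxD had 0 kb in all libraries.

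The proteins that act with or on Hox genes were read from a list of 23: the MEIS, PBX and PKNOX partners, the CDX and retinoic acid receptor regulators, and Trithorax and Polycomb subunits. Of the 18 tested, 2 were called longer in mesothelium (1.41% of all domains) and 0 longer in epithelium (2.53%), with a median of 0.36 on the log2(kb + 0.5) scale against 0.03 over all domains. Meis1, a Hox cofactor, had 43.4 and 48.8 kb in mesothelium, against 1.68 and 2.08 kb in epithelium, a difference of 4.35 (SE 0.42, limma adjusted p = 3.78e-06). Meis2 had 4.13 and 8.41 kb in mesothelium and 0 kb in epithelium, a difference of 3.74 (SE 0.73, limma adjusted p = 0.00486). Both mesothelium libraries were above both epithelium libraries at these genes. For peaks with a −log10 q of 2 or more both calls were lost (5.68 for Meis1 and 2.34 for Meis2, limma adjusted p = 0.0631 and 0.234). The Meis2 call was also lost without mesothelium replicate 2 (3.37, limma adjusted p = 0.104) and with a pseudocount of 0.1 kb (5.98, limma adjusted p = 0.0877). Meis3, Cdx1, Cdx2, Cdx4 and Bmi1 had no peak in any library.

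Pbx3, a partner of Hox proteins, had 10.9 and 4.41 kb in mesothelium, against 26.2 and 17.6 kb in epithelium (-1.5, limma adjusted p = 0.0583). It did not pass, although the mesothelium libraries both lay below the epithelium libraries. The receptor genes Rara, Rarb and Rarg and the Polycomb and Trithorax genes Ezh2, Eed, Suz12, Cbx2, Rnf2, Kmt2a and Men1 did not pass either, with adjusted p of at least 0.153.

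The genes just outside the clusters, the first 2 coding genes other than Hox genes beyond each end, had no common pattern. Skap2, an adaptor protein gene 150 kb beyond the low-number end of HoxA, had 8.49 and 13.8 kb in mesothelium, against 0.683 and 2.13 kb in epithelium, a difference of 2.74 (SE 0.60, limma adjusted p = 0.0103). Its mesothelium libraries were both higher, but the call was lost without epithelium replicate 1 (2.09, limma adjusted p = 0.0760), for peaks with the stricter −log10 q (0.186), with the smaller pseudocount (0.119) and with peaks under 3 kb apart joined, an alternative chosen after seeing the data (0.0540). Skap1, its counterpart beside HoxB, had 0 and 0.449 kb against 0.512 and 1.21 kb. Evx2, which adjoins HoxD, had 0 kb in all libraries, and Evx1, beyond HoxA, had 0.319 kb in mesothelium replicate 1 alone. Cbx5, beyond HoxC, had 8.98 and 14.3 kb against 4.34 and 6.93 kb (1.04, limma adjusted p = 0.242), and Skap2 was the one neighbour called.

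Markers of other lung cell types were set beside these results; the gate leaves out CD45+ blood cells and CD31+ endothelial cells. Over 7 lung fibroblast genes the summed length was 4.25 and 11 kb in mesothelium, against 1.67 and 4.01 kb in epithelium. Of these genes, 0 of 4 tested were called, where 1.41% of all domains were longer in mesothelium and 2.53% longer in epithelium. Over 5 endothelial genes the summed length was 13.9 and 11.2 kb in mesothelium against 2.68 and 4.19 kb in epithelium. Tek and Kdr of this list were longer in mesothelium, and Cdh5 was at 0 in both mesothelium libraries. Pecam1 had 5.43 and 1.525 kb in mesothelium, against 2.305 and 1.92 kb in epithelium (limma adjusted p = 0.781). Emcn had 2.298 and 0.777 kb in mesothelium, against 0 and 1.431 kb in epithelium (limma adjusted p = 0.579). Neither Pecam1 nor Emcn passed. The other summed lengths, in the same order of libraries, were 1.83, 0.702, 2.04 and 3.19 kb for smooth muscle, 1.23, 1.02, 1.80 and 2.14 kb for lymphatic endothelium, 0.295, 0, 0 and 1.74 kb for haematopoietic cells, 1.87, 1.18, 3.10 and 2.15 kb for neural cells and 0 kb throughout for heart muscle. Of the 4 haematopoietic genes Ptprc, Spi1 and Tyrobp had no peak in mesothelium, and Cd68 had 0.295 kb in mesothelium replicate 1 alone. The part of fibroblasts or endothelial cells in the Hox result was not tested.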

How the data were processed

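H3K27ac CUT&RUN peak lists of 4 libraries were analysed, grouped by cell type from the sample titles. Per the submitters' processing notes, the tools included cutadapt 4.8, Bowtie2 2.5.3, MACS2 2.2.9.1, DiffBind 3.6.5, edgeR and bedtools 2.31.1, with the build mm10; the role of each, the peak caller's threshold and any use of the IgG libraries were not given in the sources used here. Peaks were called per library, as the deposited peak names show. The deposited score of each peak was left aside. The deposited ratio holds the authors' fold enrichment, and the deposited −log10 p and −log10 q served to filter or rank peaks within a list. A list keeps only intervals above the caller's minimum, so the covered length depends on depth, which is unknown.

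The Hox members and the gene lists were chosen with earlier results of these data known. Peaks outside the 19 autosomes, X and Y were dropped (1 to 8 per library). Genes were placed by RefSeq's table for GRCm38.p6, in which all 38 members matched. Covered kb per gene domain (the gene plus the nearest intergenic bases up to 50 kb) was compared by limma 3.58.1 under R 4.3.3, with an intensity trend, on log2(kb + 0.5). Libraries were centred on the median of 6918 domains that had peaks in each library, and p-values were adjusted by Benjamini-Hochberg over every domain averaging 0.5 kb or more. In a second fit the clusters replaced their members. Acetylation stopped at the last base covered in both libraries before at least 20 kb without one. A peak at a gene overlapped the gene body plus 1 kb by at least 1 bp. All members could be named, with values in full for called members, those beside each stop and the extremes of each cluster; of the partner list called genes were named, and Pbx3 was added after its values were seen; 1 gene of that list is not reported here by name. No genome sequence was used here, so no sequence of a peak is shown. Coverage and limma steps were tested on simulated data. The remaining work was done in Python 3.11.15 with numpy 2.4.6, pandas 2.3.3 and matplotlib 3.10.9.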

Additional observations from a re-analysis of the deposited data

How the results depend on the processing

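The differences of HoxA, HoxB, the 6 tested Hox genes, Meis1, Meis2 and Skap2 kept their direction in every alternative that gave a value. The count of 2 members longer in mesothelium became 0 when peaks needed a −log10 q of 2 or more, 1 with a pseudocount of 0.1 kb and 5 with the gene body plus 5 kb, and was 2 whichever library was left out. HoxA became 4.63 and HoxB 4.43 at that −log10 q (limma adjusted p = 0.115 and 0.122). In that setting limma called 0 of 6339 features of the fit with the clusters, with 961 at an unadjusted p under 0.05. HoxA became 6.39 (limma adjusted p = 0.0592) with the smaller pseudocount, while HoxB kept its call (5.26, limma adjusted p = 0.0477). That pseudocount left 3 features longer in mesothelium and 2 longer in epithelium in the fit with the clusters. Leaving out each library gave 4.41 to 5.14 for HoxA and 4.43 to 4.64 for HoxB. The HoxA stop lay at 52204418 with either library, at 52181073 for the stricter peaks and at 52160387, in the flank beyond Hoxa2, for a gap of 10 kb. The HoxB stop lay at 96303658, 96309414 and, for equal numbers of peaks, 96306582. Members with a peak in both mesothelium libraries fell from 7 to 4 for the stricter peaks.

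Calls over all domains, 148 longer in mesothelium and 265 in epithelium, were 93 and 114 after scaling to total covered length, 94 and 125 after quantile normalization, 89 and 192 without scaling, 73 and 135 with peaks under 3 kb apart joined (chosen after seeing the data), 169 and 464 without mesothelium replicate 1, 103 and 107 without epithelium replicate 1 and 100 and 71 without epithelium replicate 2. With the replicate block, the number in the titles, they were 202 and 338, and the Hox values stayed 4.82 and 4.52 with 2 members called. The labels do not say whether same-numbered libraries are pairs. Their deviations had a correlation of 0.03, which cannot decide this, since noise in the peak lengths could hide a pairing. No peak lay within 1 kb of another, so joining such peaks changed nothing, and at a −log10 q of at least 4 no Hox feature could be tested. The cause of these shifts was not tested.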
